A study of Mus musculus with 6 samples.

Results

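The 10 genes described here are targets of p53 or members of the BCL2 family, and were followed in regenerating mouse muscle. They are the p53 targets Cdkn1a, Gadd45a and Mdm2, the pro-death genes Bax, Bak1, Bbc3 and Bid, and the survival genes Bcl2, Bcl2l1 and Mcl1. They were chosen by name from a fixed list, with earlier results of these data known. All 10 had a row among the 16289 genes of the deposited count table. The RNA came from whole tibialis anterior, a muscle at the front of the lower leg, of male C57BL/6J mice aged 12 weeks. Both groups received an injection of glycerol, which destroys fibres and starts regeneration, 14 days before collection. In the glycerol+melatonin group (3 mice) the injury was combined with melatonin, the pineal hormone, and in the glycerol group (3 mice) with a control treatment. Uninjured muscle was not analysed here, and how much melatonin was given, how and when is not stated in the sources used here. The labels call the tissue tibialis anterior, while their extraction text names a back muscle, the longissimus dorsi.

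p53, encoded by Trp53 in the mouse, is a transcription factor that is stabilised when DNA is damaged or a cell is under stress. It switches on Cdkn1a, whose product p21 stops the cell cycle, Gadd45a, which acts in growth arrest and DNA repair, and Mdm2, the ubiquitin ligase that degrades p53 and closes the loop. It also switches on death genes of the BCL2 family, in which BAX and BAK open the outer mitochondrial membrane, BH3-only proteins such as PUMA (Bbc3) and BID push them to do so, and BCL2, BCL-XL (Bcl2l1) and MCL1 hold them back. In muscle, p21 is also known for the exit of myoblasts from the cell cycle as they differentiate, where it can be induced without p53.

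Library totals were 39310361 to 48879045 counts. The spread between mice exceeded the counting error in 17 of the 20 combinations of gene and group, the exceptions being Bbc3 with melatonin and Bid and Gadd45a with glycerol alone. The scaling factors of TMM, a correction for library composition, were 0.967 to 1.14 with melatonin and 0.869 to 1.04 with glycerol alone. Scaling by library size alone therefore moved the median log2 fold change of all genes by 0.21. Mature fibre transcripts (6 markers, among them Acta1 and Ckm) summed to 56368 to 90102 CPM in glycerol+melatonin muscle and 86489 to 104768 CPM in glycerol muscle, as a muscle sample should hold. CPM are counts per 1000000, scaled by the TMM factors.

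In glycerol+melatonin muscle, Bax, Gadd45a, Cdkn1a and Bbc3 lay above every mouse of the glycerol group, by 1.92-fold, 1.55-fold, 1.49-fold and 1.37-fold. Such a separation was seen in 13.6% of all genes as higher and in 12.5% as lower, and among the 10 genes 4 were separate and higher and 0 separate and lower. Bcl2, Mdm2 and Mcl1 differed by less than 10% between group means (fold changes 0.949, 1.08 and 1.10). Bak1 was at 0.698-fold with overlapping groups. None of the 10 genes passed edgeR's quasi-likelihood test at an adjusted p under 0.05, a threshold that 12 of 16259 genes (0.0738%) passed. At an unadjusted p under 0.05, 4 of the 10 were higher and 0 lower, against 10.1% and 9.39% of all genes. DESeq2 called 2 of the 10 as higher, Bax and Gadd45a, and 0 as lower, against 2.25% and 2.88% of the genes it adjusted. Over the 10 genes the median log2 fold change was 0.38 and 8 were above 0, while over all genes tested the median was 0.02 and 51.7% were above 0. Since the 10 genes were chosen with earlier results of these data known, an excess over the shares of all genes is no test. Because these are bulk samples, fewer cells of a type and less RNA per cell cannot be told apart.

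**Figure D1:**
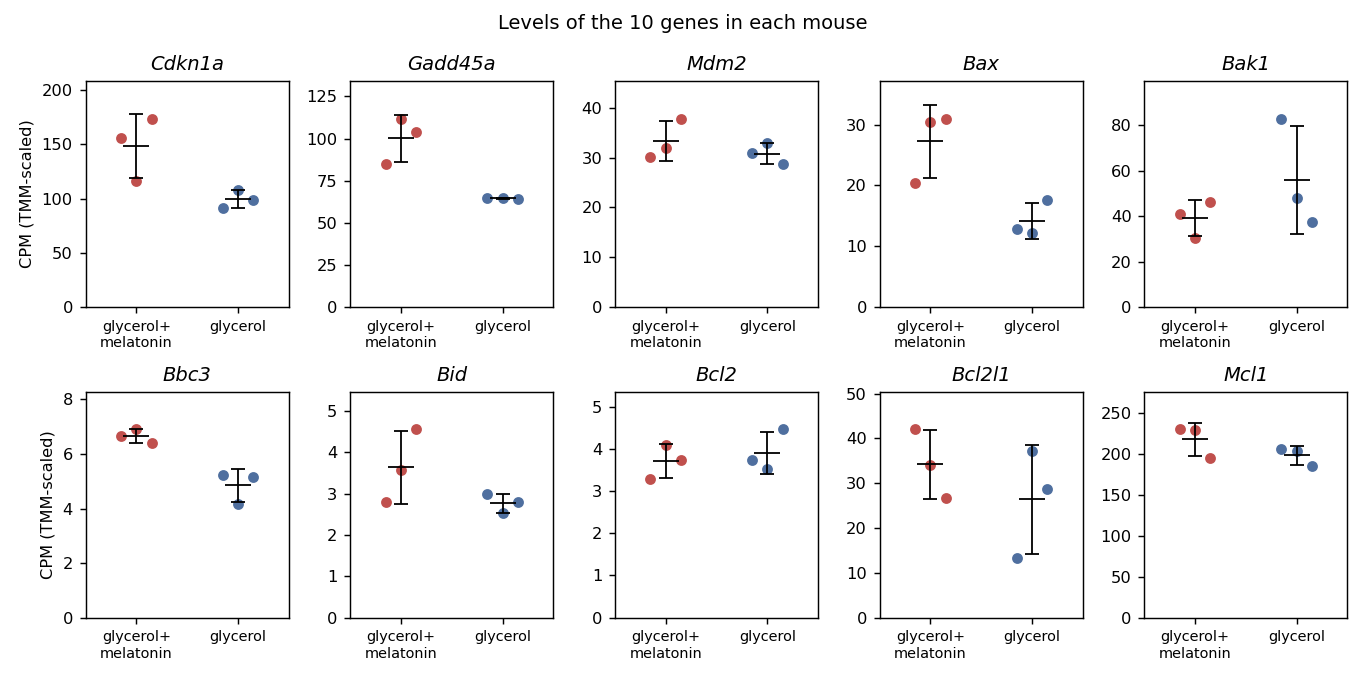
Level of each gene in each of the 6 mice, in TMM-scaled CPM on axes that start at 0. Points are mice, the horizontal bars are group means and the whiskers are SD (n = 3 per group). The groups are separate for Cdkn1a, Gadd45a, Bax and Bbc3, and they overlap for the other 6 genes.

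Among the p53 targets that act on the cell cycle, Cdkn1a was at 155, 116 and 174 CPM in the 3 glycerol+melatonin mice, against 91.0, 108 and 99.1 CPM in the 3 glycerol mice. The groups were separate, and the nearest pair of mice, glycerol+melatonin replicate 2 and glycerol replicate 2, lay close together. The log2 fold change was 0.58 ± 0.19 (SE), with an edgeR adjusted p of 0.182 and a DESeq2 adjusted p of 0.0976. Cdkn1a (ENSMUSG00000023067) lies on chromosome 17 from 29090976 to 29100727 on the plus strand of GRCm38. RefSeq gives it 2 start sites, and the windows of 250 bases before to 50 bases after each start (GRCm38.p6, plus strand) are shown because the p53 response of this gene is classically traced to its upstream region. Capitals mark pairs of p53 half-sites, with at most 2 mismatches to the consensus in all and a spacer of up to 13 bases. No mismatch was allowed at the fixed C and G in the core of each half-site.
Cdkn1a, chr17:29090729-29091028: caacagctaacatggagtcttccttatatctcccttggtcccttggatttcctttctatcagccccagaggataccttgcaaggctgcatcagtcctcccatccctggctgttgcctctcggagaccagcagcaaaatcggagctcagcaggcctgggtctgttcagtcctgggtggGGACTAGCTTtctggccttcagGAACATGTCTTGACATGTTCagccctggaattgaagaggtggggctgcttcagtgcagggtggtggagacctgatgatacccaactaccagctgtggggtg
Cdkn1a, chr17:29093519-29093818: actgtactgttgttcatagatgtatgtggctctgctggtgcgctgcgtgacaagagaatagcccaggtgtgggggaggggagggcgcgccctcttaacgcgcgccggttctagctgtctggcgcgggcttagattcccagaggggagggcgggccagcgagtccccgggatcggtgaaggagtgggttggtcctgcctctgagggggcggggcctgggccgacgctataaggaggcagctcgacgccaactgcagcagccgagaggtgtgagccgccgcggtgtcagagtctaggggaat

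The upstream window held 2 exact half-sites of the p53 consensus, beginning 73 and 51 bases before the start. The half-site at 51 bases was followed directly, with a spacer of 0 bases, by another with 1 mismatch (GAACATGTCT, then TGACATGTTC). The downstream window held no exact half-site and no pair within the limits given above. An exact half-site occurs in 8.36% of the 32851 promoter windows of the same length, and a pair within these limits in 4.09%.

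Gadd45a had the tightest baseline of the 10 genes. It was at 84.7, 111.8 and 104 CPM in glycerol+melatonin muscle, against 64.6, 64.7 and 64.1 CPM in glycerol muscle. All mice given melatonin were thus above a glycerol group that spread by under 1 CPM. That spread, 0.53% of the mean, was below the counting error of 1.93%, so 3 mice cannot show a baseline that stable. On the log2 scale the difference was 0.63 ± 0.16 (SE), with an edgeR adjusted p of 0.138 and a DESeq2 adjusted p of 0.0252. Its longest transcript has 1223 bases, and once the trend of counts with transcript length was removed from each library the log2 fold change was 0.40 (edgeR adjusted p = 0.262). Gadd45a (ENSMUSG00000036390) lies on chromosome 6 from 67035096 to 67037457 on the minus strand and shares 337 exon bases with E230016M11Rik on the other strand, which was at 2.39 ± 0.213 CPM in glycerol+melatonin muscle and 1.90 ± 0.337 CPM in glycerol muscle (SD, n = 3). Its promoter window, on the minus strand of GRCm38.p6, held 1 exact half-site 40 bases before the start.
Gadd45a, chr6:67037358-67037657: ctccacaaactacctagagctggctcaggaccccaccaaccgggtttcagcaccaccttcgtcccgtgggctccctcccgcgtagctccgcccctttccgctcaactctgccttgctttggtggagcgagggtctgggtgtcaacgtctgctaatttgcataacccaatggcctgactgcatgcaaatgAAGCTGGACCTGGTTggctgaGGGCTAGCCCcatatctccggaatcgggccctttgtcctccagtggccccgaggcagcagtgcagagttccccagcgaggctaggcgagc

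The regulator of p53 itself, Mdm2, differed less between group means than Cdkn1a and Gadd45a. Mdm2 was at 30.2, 31.9 and 37.79 CPM in glycerol+melatonin muscle and 30.8, 32.9 and 28.7 CPM in glycerol muscle. The groups overlapped, with only glycerol+melatonin replicate 3 above all glycerol mice. Its log2 fold change was 0.11 ± 0.15 (SE, edgeR adjusted p = 0.705), and 0.02 without glycerol+melatonin replicate 3. The table counts whole genes, so transcripts from the internal, p53-responsive Mdm2 promoter were not separated from the rest. The window at the annotated start of Mdm2 held 1 exact half-site, 186 bases before the start.

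Among the pore-forming effectors, Bax had the largest fold change of the 10 genes. It was at 20.4, 30.4 and 31.0 CPM in glycerol+melatonin muscle, against 12.9, 12.1 and 17.6 CPM in glycerol muscle. The groups were separate, although glycerol+melatonin replicate 1 lay nearer to glycerol replicate 3 than to the other mice given melatonin. Its fold change on the log2 scale was 0.94 ± 0.22 (SE), with an edgeR adjusted p of 0.137 and a DESeq2 adjusted p of 0.0107. After the correction for transcript length it was 0.71 (edgeR adjusted p = 0.193), the longest Bax transcript having 1100 bases. Bax (ENSMUSG00000003873) lies on chromosome 7 from 45461697 to 45466898 on the minus strand and shares 192 exon bases with the gene model Gm45808 on the same strand. Its promoter window, on the minus strand of GRCm38.p6, is shown because Bax is a direct p53 target. It held 1 exact half-site beginning 201 bases before the start, which forms a pair with 2 mismatches on each side of it.
Bax, chr7:45466849-45467148: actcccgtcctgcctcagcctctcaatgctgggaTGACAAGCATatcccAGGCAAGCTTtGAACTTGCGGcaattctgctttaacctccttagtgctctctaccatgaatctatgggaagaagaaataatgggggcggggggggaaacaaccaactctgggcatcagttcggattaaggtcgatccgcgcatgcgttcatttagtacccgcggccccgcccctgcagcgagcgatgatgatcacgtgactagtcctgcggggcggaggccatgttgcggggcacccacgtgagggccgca

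Bak1, the other effector, pointed the other way on average. It was at 41.1, 30.3 and 46.0 CPM in glycerol+melatonin muscle and 82.8, 47.9 and 37.3 CPM in glycerol muscle. The groups overlapped, and glycerol replicate 1 stood far above the other 5 mice. On the log2 scale Bak1 was at -0.52 ± 0.30 (SE, edgeR adjusted p = 0.362), and -0.12 without glycerol replicate 1. Bak1 shares 437 exon bases with Ggnbp1 on the other strand, and the sources used here do not say whether counting used strand. Ggnbp1 averaged 36.5 ± 1.09 CPM in glycerol+melatonin muscle and 21.2 ± 3.43 CPM in glycerol muscle (SD, n = 3), with a log2 fold change of 0.78 ± 0.16 (SE, edgeR adjusted p = 0.125).

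Of the BH3-only genes, Bbc3, which encodes PUMA, was at 6.67, 6.90 and 6.40 CPM in glycerol+melatonin muscle and 5.24, 4.17 and 5.17 CPM in glycerol muscle. The groups were separate. The mice given melatonin differed by less than the counting error (3.74% against 5.57% of the mean). The log2 fold change was 0.46 ± 0.18 (SE, edgeR adjusted p = 0.229; DESeq2 adjusted p = 0.234). None of its 3 promoter windows held an exact p53 half-site, or a pair of half-sites with at most 2 mismatches in all. Looser matches were not searched for, so a p53 site with more mismatches could have been missed. Bid, which links death receptors to mitochondria once cleaved, was at 2.79, 3.58 and 4.55 CPM in glycerol+melatonin muscle and 2.99, 2.53 and 2.79 CPM in glycerol muscle. Its groups overlapped through glycerol+melatonin replicate 1, and the log2 fold change was 0.39 ± 0.24 (SE, edgeR adjusted p = 0.389), 0.21 without glycerol+melatonin replicate 3 and 0.62 with library size alone. Bid shares 628 exon bases with Bcl2l13 on the other strand, which averaged 52.5 ± 10.3 CPM in glycerol+melatonin muscle and 78.8 ± 3.71 CPM in glycerol muscle (SD, n = 3). Bcl2l13 is thus the more abundant of the pair, and reads from the shared bases could have been counted for either.

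The survival genes had no separate groups. Bcl2 was at 3.29, 4.10 and 3.72 CPM in glycerol+melatonin muscle and 3.73, 3.52 and 4.46 CPM in glycerol muscle. Its log2 fold change was -0.08 ± 0.21 (SE, edgeR adjusted p = 0.868), and its sign turned with library size scaling (0.13) and with the length correction (0.09). Mcl1, a short-lived survival protein, was at 230.1, 229.6 and 195 CPM in glycerol+melatonin muscle and 206, 204 and 185.5 CPM in glycerol muscle. Its log2 fold change was 0.14 ± 0.15 (SE, edgeR adjusted p = 0.645), and its groups became separate, with melatonin higher, when CPM were scaled by library size alone, a scaling on which 18.9% of all genes were separate and higher. Bcl2l1 was at 42.0, 34.1 and 26.7 CPM in glycerol+melatonin muscle and 13.2, 37.2 and 28.8 CPM in glycerol muscle. The spread within both groups was wide, and glycerol replicate 1, the mouse with the highest Bak1, had the lowest Bcl2l1. On the log2 scale Bcl2l1 was at 0.37 ± 0.35 (SE, edgeR adjusted p = 0.566), 0.05 without glycerol replicate 1 and 0.70 without glycerol replicate 2.

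**Figure D2:**
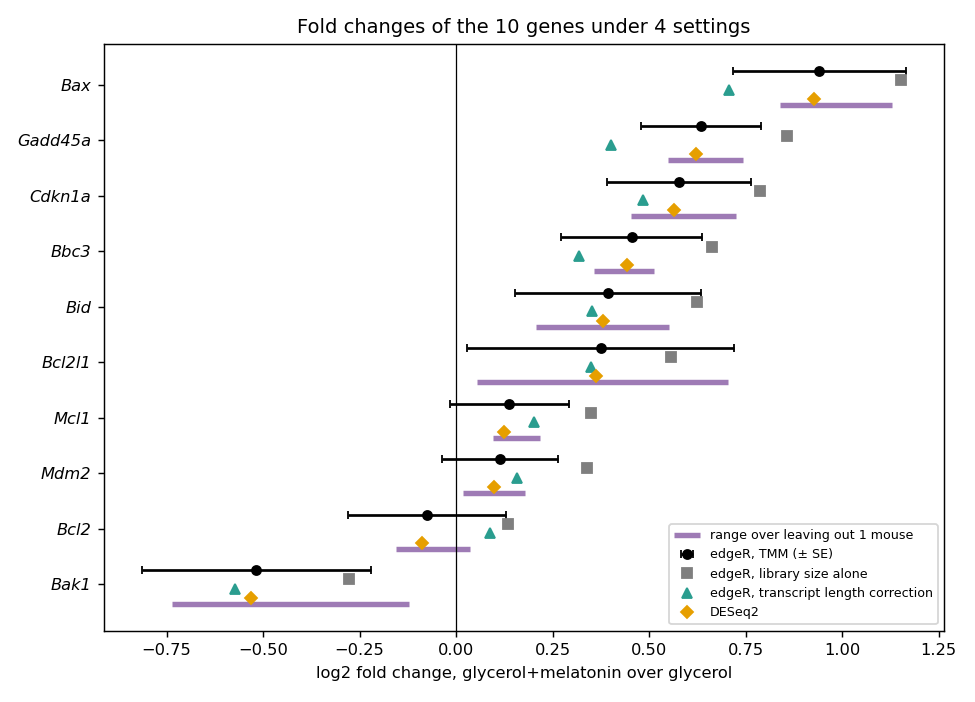
Log2 fold change, glycerol+melatonin over glycerol, of each gene with edgeR and TMM scaling (circles, whiskers SE), with library size alone (squares), with the transcript length correction (triangles) and with DESeq2 (diamonds). The thick lines span the values with each mouse left out in turn. Bax stays between 0.71 and 1.15, while Bcl2 lies on both sides of 0.

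Levels of different genes were set side by side per kilobase of longest transcript, a rough measure, since the table does not separate transcripts. On this measure the order of levels was led by the same genes in both groups. In glycerol+melatonin muscle Gadd45a was at 81.8 ± 11.4, Cdkn1a at 71.3 ± 14.1 and Mcl1 at 63.8 ± 5.94 CPM per kilobase (SD, n = 3), and neighbours in this order overlapped. In glycerol muscle Mcl1 came first at 58.0 ± 3.29 CPM per kilobase, followed by Gadd45a at 52.7 ± 0.28 and Cdkn1a at 47.8 ± 4.11, with no overlap between neighbours. Bax was at 24.8 ± 5.44 CPM per kilobase in glycerol+melatonin muscle and 12.9 ± 2.71 in glycerol muscle, and Bak1 at 16.4 ± 3.38 in glycerol+melatonin muscle and 23.5 ± 9.98 in glycerol muscle. The ranges of Bax and Bak1 overlapped within each group, but mouse by mouse Bax was above Bak1 in 3 of 3 glycerol+melatonin mice (18.5 against 17.2, 27.6 against 12.7 and 28.2 against 19.3 CPM per kilobase) and in 1 of 3 glycerol mice (16.0 against 15.6). The order of Bax and Bak1 depends on the length used. All exons together span 1576 bases for Bax and 2407 for Bak1, against 1100 and 2387 in the longest transcripts. With those lengths Bax would be lower relative to Bak1, and the order by mouse was not recomputed. The same holds for the lead of Gadd45a, whose exons span 1764 bases against 1223. Bcl2 was the lowest of the 10 genes in both groups, at 0.515 ± 0.0562 CPM per kilobase in glycerol+melatonin muscle and 0.543 ± 0.0683 in glycerol muscle.

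Ratios of raw counts within a mouse do not depend on the scaling of libraries, and 5 were computed. They still depend on any trend of counts with transcript length, and were not corrected for it. The longest transcripts have 1100 bases for Bax and 7191 for Bcl2. With the length correction the log2 fold changes were 0.71 for Bax and 0.09 for Bcl2, against 0.94 and -0.08 without it. Bax had 6.19, 7.42 and 8.32 counts per count of Bcl2 in glycerol+melatonin muscle, against 3.44, 3.44 and 3.95 in glycerol muscle. The mean ratio was 2.02 times as large with melatonin and the groups were separate. Bak1 per Bax was at 2.02, 0.994 and 1.49 in glycerol+melatonin muscle and 6.45, 3.94 and 2.12 in glycerol muscle, also separate, with glycerol+melatonin replicate 1 close to glycerol replicate 3. Cdkn1a per Mdm2 was at 5.15, 3.63 and 4.59 in glycerol+melatonin muscle, against 2.95, 3.29 and 3.46 in glycerol muscle. For these 3 ratios the two-sided exact permutation p was 0.1, the smallest that 3 against 3 mice can give (0.167 after Benjamini-Hochberg adjustment over the 5). Each of the 3 holds Bax or Cdkn1a, whose own groups were separate, so these ratios are not independent of the values of those genes. Bax per Bcl2l1 averaged 0.846 ± 0.341 in glycerol+melatonin muscle and 0.636 ± 0.323 in glycerol muscle, and Bax per Mcl1 averaged 0.127 ± 0.0357 in glycerol+melatonin muscle and 0.0723 ± 0.0197 in glycerol muscle (SD, n = 3; exact permutation p = 0.6 and 0.2). Both of these ratios overlapped between groups.

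**Figure D3:**
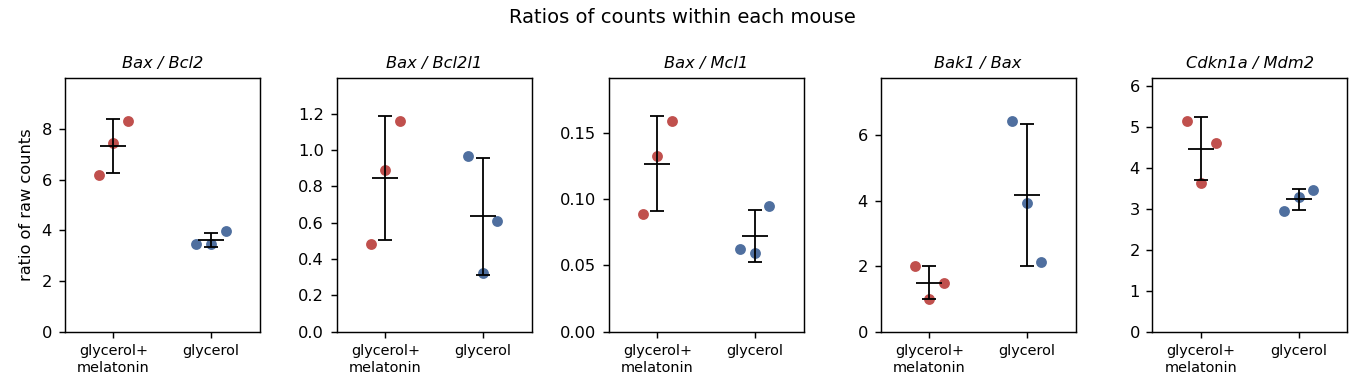
Ratios of raw counts of pairs of genes in each mouse, on axes that start at 0. Points are mice, horizontal bars are group means and whiskers are SD (n = 3 per group). Bax per Bcl2 is between 6.19 and 8.32 in the glycerol+melatonin mice and between 3.44 and 3.95 in the glycerol mice.

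Trp53 was at 43.3, 40.1 and 65.9 CPM in glycerol+melatonin muscle and 38.7, 32.8 and 39.2 CPM in glycerol muscle. The groups were separate, but by less than 1 CPM, and glycerol+melatonin replicate 3 stood apart from its group. The log2 fold change was 0.43 ± 0.21 (SE, edgeR adjusted p = 0.294), and 0.18 without glycerol+melatonin replicate 3. Of 17 tested genes for p53 and its regulators, 0 passed with edgeR (1 higher and 3 lower at an unadjusted p under 0.05), the median log2 fold change was 0.00, and DESeq2 called 2, Hipk2 as lower and Mdm4 as higher. For this list and those below, the shares over all genes were 10.1% higher and 9.39% lower at an unadjusted edgeR p under 0.05. By DESeq2 they were 2.25% and 2.88%, and 51.7% of all genes were above 0. Hipk2, a kinase that phosphorylates p53 after damage, was at 3.02, 2.33 and 2.57 CPM in glycerol+melatonin muscle and 9.07, 8.57 and 4.63 CPM in glycerol muscle (-1.49 ± 0.28, SE, edgeR adjusted p = 0.117). The groups were separate, and Hipk2 passed when glycerol replicate 3 was left out (edgeR adjusted p = 0.0469). Mdm4, the partner of Mdm2 that blocks p53, was at 67.5, 95.1 and 93.6 CPM in glycerol+melatonin muscle and 52.0, 45.4 and 57.3 CPM in glycerol muscle (0.73 ± 0.18, edgeR adjusted p = 0.141). The damage kinase Atm was at -0.82 ± 0.29 and the acetyltransferase Ep300 at -0.55 ± 0.22 on the log2 scale (edgeR adjusted p = 0.198 and 0.232).

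The wider list of p53 targets held 40 tested genes, 5 of them among the 10 described above, and they did not move one way. Of the 40, 26 were above 0 and 14 below, and the median was 0.10 on the log2 scale. By edgeR 0 passed (9 higher and 3 lower at an unadjusted p under 0.05), and DESeq2 called Bax, Gadd45a, Btg2 and Plk3 as higher and Rrm2b as lower. Groups were separate and higher in 12 of the 40 and separate and lower in 3, against 13.6% and 12.5% of all genes. Btg2, an antiproliferative gene that is also an immediate-early gene, was at 62.9, 85.9 and 69.3 CPM in glycerol+melatonin muscle and 31.8, 45.3 and 47.8 CPM in glycerol muscle (log2 fold change 0.80 ± 0.20, edgeR adjusted p = 0.141). The stress-responsive kinase gene Plk3 was at 9.25, 8.77 and 14.8 CPM in glycerol+melatonin muscle and 6.03, 5.76 and 5.68 CPM in glycerol muscle (0.91 ± 0.23, edgeR adjusted p = 0.141). Rrm2b and Ccng1, both named after their values were seen, stood on the other side. Rrm2b, a ribonucleotide reductase subunit, was at 10.8, 8.54 and 6.36 CPM in glycerol+melatonin muscle and 20.3, 19.3 and 12.3 CPM in glycerol muscle (-1.02 ± 0.26, edgeR adjusted p = 0.141). Cyclin G1 (Ccng1), among the best known p53 targets, was at -0.76 ± 0.26 (edgeR adjusted p = 0.194) with separate groups.

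**Figure D4:**
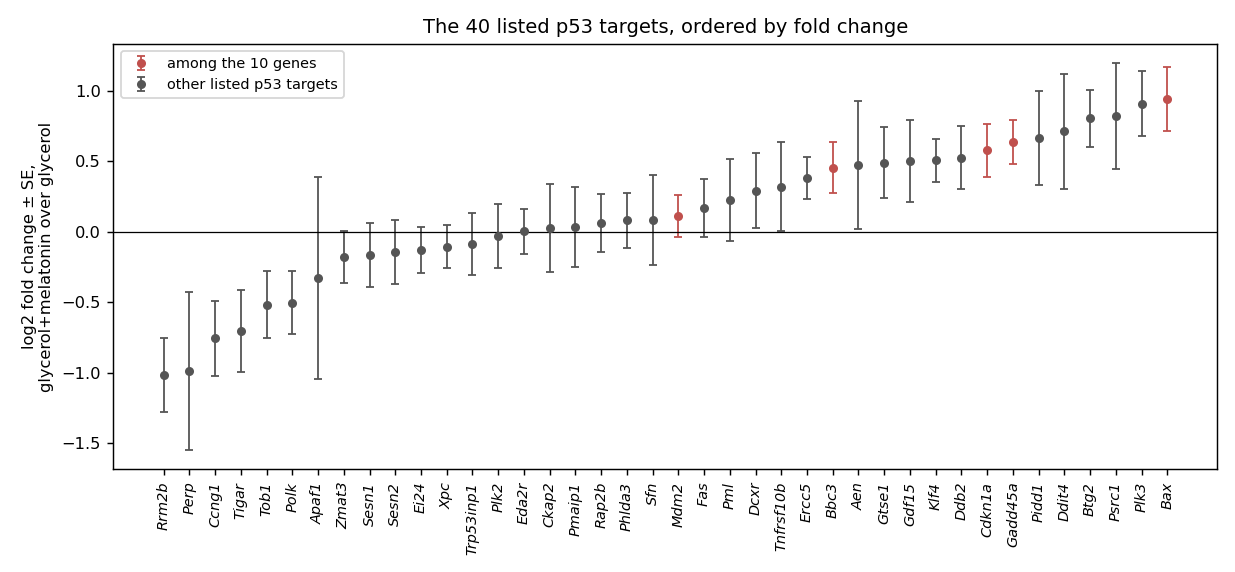
Log2 fold change, glycerol+melatonin over glycerol, of the 40 listed p53 targets, ordered by value, with whiskers of SE from edgeR (n = 3 per group). The red points are the 5 targets among the 10 genes, which run from 0.11 (Mdm2) to 0.94 (Bax), while the whole list runs from -1.02 (Rrm2b) to 0.94.

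The BCL2 family as a whole was mixed as well. Of 13 effector and BH3-only genes, 4 of them among the 10, 9 were above 0, 0 passed by edgeR (Bax, Bbc3 and Bik higher and 0 lower at an unadjusted p under 0.05) and DESeq2 called Bax alone, with a median log2 fold change of 0.12. Bik, a BH3-only gene of low level here, was at 1.94, 2.81 and 3.09 CPM in glycerol+melatonin muscle and 1.33, 1.34 and 2.11 CPM in glycerol muscle, with overlapping groups. Of 7 survival genes, 3 of them among the 10, 0 passed by edgeR (0 higher and 1 lower at an unadjusted p under 0.05) or by DESeq2. The 1 lower was Bcl2l2, which encodes BCL-W, at 18.9, 21.1 and 16.0 CPM in glycerol+melatonin muscle and 23.1, 27.1 and 29.0 CPM in glycerol muscle. Its groups were separate and its log2 fold change was -0.50 ± 0.17 (SE, edgeR adjusted p = 0.188). Bcl2a1a and Bcl2a1b, survival genes of blood cells, are near-identical copies whose reads the counting could split, and were at 0.62 ± 0.47 and 0.77 ± 0.38 (edgeR adjusted p = 0.482 and 0.304).

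Downstream of the mitochondrion, the 20 genes for caspases, the apoptosome and their inhibitors were evenly divided, with 10 on each side of 0 and a median of 0.00 on the log2 scale. None passed by edgeR (1 higher and 0 lower at an unadjusted p under 0.05) or by DESeq2. The 1 higher was Dffb, the nuclease that cuts DNA in dying cells, at 5.35, 7.44 and 7.72 CPM in glycerol+melatonin muscle and 3.41, 4.21 and 4.95 CPM in glycerol muscle. Its log2 fold change was 0.71 ± 0.23 (SE, edgeR adjusted p = 0.184), while its inhibitor Dffa was at -0.30 ± 0.17 and the mitochondrial protease Htra2 at 0.26 ± 0.14.

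Among 10 CDK inhibitors and GADD45 genes, 8 were above 0, 0 passed by edgeR (3 higher and 0 lower at an unadjusted p under 0.05) and DESeq2 called Gadd45a and Gadd45g as higher. Gadd45g, a relative of Gadd45a that is not a classical p53 target, was at 153, 79.8 and 147 CPM in glycerol+melatonin muscle and 50.6, 75.8 and 67.1 CPM in glycerol muscle (log2 fold change 0.97 ± 0.27, edgeR adjusted p = 0.157). Its groups were separate, with glycerol+melatonin replicate 2 near the glycerol mice, the same mouse that had the lowest Cdkn1a of its group. Cdkn1b, which encodes the inhibitor p27, was at -0.56 ± 0.26 (edgeR adjusted p = 0.286) with overlapping groups.

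Several of the 10 genes also respond to acute stimuli, so a list of immediate-early genes is given beside them. Of 22 tested, 21 were above 0, all but Egr2 (-0.08 ± 0.30), and the median log2 fold change was 0.61. None passed by edgeR at an adjusted p under 0.05 (13 higher and 0 lower at an unadjusted p under 0.05), while DESeq2 called 10, each as higher. Groups were separate and higher in 13 of the 22 and overlapped in 9. Over all genes, 51.7% were above 0, 10.1% were higher at an unadjusted p under 0.05 with edgeR and 13.6% were separate and higher. DESeq2 called 2.25% of the genes it adjusted as higher. Klf2 was at 108, 97.1 and 127 CPM in glycerol+melatonin muscle and 34.2, 51.1 and 45.1 CPM in glycerol muscle (1.35 ± 0.19, edgeR adjusted p = 0.0653). Fos, Jund and Ier5 were at 1.38 ± 0.22, 0.81 ± 0.15 and 1.14 ± 0.23 (edgeR adjusted p = 0.0788, 0.117 and 0.122). Their part in the values of Cdkn1a, Gadd45a and Bax was not tested. The AP-1 motif TGANTCA, searched on both strands, was in 0 of the 15 promoter windows of the 10 genes and in 7.81% of all windows. Some of the 15 windows belong to the same gene, and so few windows cannot tell 0 from that share.

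Markers of the cell types in the muscle are given by their summed levels, and their part in these values was not tested. No single marker passed by edgeR. Summed markers of fibro-adipogenic progenitors (6 of 6 tested) were at 781 to 892 CPM in glycerol+melatonin muscle and 991 to 1394 CPM in glycerol muscle, a sum led by Dcn, while Cd34 and Ly6a were at 0.19 and 0.09 on the log2 scale. Muscle stem cell markers (6 of 6) summed to 104 to 117 CPM in glycerol+melatonin muscle and 79.4 to 94.5 CPM in glycerol muscle. That sum was led by Sdc4 and Myod1, with Myf5 at -0.27 on the log2 scale. Of these 6 markers only Sdc4 had separate groups. Sdc4 was at 46.0, 55.3 and 31.5 CPM in glycerol+melatonin muscle and 20.7, 29.1 and 27.6 CPM in glycerol muscle. Neutrophil markers (4 of 6) summed to 5.34 to 21.1 CPM in glycerol+melatonin muscle and 4.21 to 4.92 CPM in glycerol muscle, with S100a9 at 7.23 CPM in glycerol+melatonin replicate 3 and 0 counts in 1 glycerol mouse, and Schwann cell markers (5 of 5) to 104 to 145 CPM in glycerol+melatonin muscle and 149 to 156 CPM in glycerol muscle. Macrophage markers (6 of 6) overlapped, at 259 to 353 CPM in glycerol+melatonin muscle and 261 to 362 CPM in glycerol muscle. Markers of cycling cells (5 of 5) overlapped as well, at 27.0 to 41.9 CPM in glycerol+melatonin muscle and 25.8 to 39.1 CPM in glycerol muscle. New fibre markers (5 of 5) summed to 244.5 to 348 CPM in glycerol+melatonin muscle and 180.4 to 318 CPM in glycerol muscle, a sum dominated by Myh8 (0.12 on the log2 scale), while all 5 were above 0 with a median of 0.64. Sums for endothelium, fat cells and lymphocytes overlapped between groups.

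Bax had the smallest p-value of the 10 genes, and the genes whose log2 CPM ran most alike with it over the 6 mice were Trim47, Slc9a5, Ccdc88b, the non-coding locus Gt(ROSA)26Sor and the lamin gene Lmna. Their Pearson r ran from 0.994 to 0.995. With 6 mice such values are common: 265 of 13865 genes compared had an r above 0.95 with Bax. Being picked for their likeness to a gene with separate groups, they were separate too, which adds nothing to the result for Bax. Their log2 fold changes were 0.53 ± 0.18 for Trim47, 0.94 ± 0.26 for Slc9a5, 0.45 ± 0.20 for Ccdc88b, 0.69 ± 0.20 for Gt(ROSA)26Sor and 0.42 ± 0.16 for Lmna (edgeR adjusted p 0.154 to 0.266).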

How the data were processed

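Counts of reads per gene in 6 libraries of whole muscle were deposited by the authors as 1 table of raw, unnormalized counts with Ensembl identifiers. The submitters' processing notes name HISAT2 2.0, Trimmomatic 0.36, StringTie 1.3.3b, bedtools 2.26.0, FastQC 0.11.2 and DESeq2 1.12.4, and build mm10. The sources used here do not give the counter, its annotation, its strand setting or its handling of multi-mapping reads. The smallest total of a row is 28 counts. Columns were matched to samples by treatment code and replicate number.

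Symbols were found for 16260 of 16289 genes, and positions and transcript lengths were taken from GENCODE M21 on GRCm38, the assembly of mm10. The test was edgeR 4.0.16's quasi-likelihood test in R 4.3.3 on the deposited counts, with TMM factors, the filterByExpr filter (16259 genes kept, all 10 described genes among them), no covariate and Benjamini-Hochberg adjustment over all genes. A gene passed at an adjusted p under 0.05. The SE is the log2 fold change divided by the square root of F. Other settings were RLE factors, library size alone, no filter, over 1 CPM in 3 or more libraries, limma-voom (limma 3.58.1), DESeq2 1.42.0, a replicate block, a spline on transcript length with 4 degrees of freedom per library, a threshold of 0.1 and leaving out each library. Scripts were tested on simulated counts. Mice of a group differed by more than sampling noise, with a chi-square of 66.8 to 183 per degree of freedom, and all were kept as separate replicates. The series' text calls the mice of a group biological replicates.

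The 10 genes, the lists and the markers were chosen with earlier results of these data known. Named genes were all 10, Trp53, the 4 genes with the smallest p-value in each list, any that passed, and the 5 most alike with the gene of smallest p-value. Of the genes this rule picks, 1 is not reported here. Promoter windows came from RefSeq (GRCm38.p6). All 10 genes matched, with 15 windows in all. The p53 half-site consensus of 10 bases reads the same on both strands.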

Additional observations from a re-analysis of the deposited data

How the results depend on the processing

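Over 14 other settings for each of the 10 genes (140 values), 134 kept their direction and side of the threshold. Bax and Gadd45a passed with DESeq2 (0.93 and 0.62 on the log2 scale), and Bcl2 changed sign with library size alone (0.13), the transcript length correction (0.087), without glycerol replicate 3 (0.035) and without glycerol+melatonin replicate 1 (0.003), with values from -0.155 to 0.035 over leaving out 1 library. The cause was not tested. The count of all genes passing was 12, with 753 by DESeq2, 0 with the replicate block, 59 at a threshold of 0.1 and 6 to 27 with 1 library left out (6 without glycerol replicate 1, 27 without glycerol replicate 3, 25 without glycerol+melatonin replicate 1, 24 without glycerol+melatonin replicate 3). Of the 10 genes, 0 passed with edgeR and 2 with DESeq2. By list, DESeq2 called 1 effector or BH3-only gene, 2 regulators of p53, 5 p53 targets, 2 CDK inhibitor or GADD45 genes and 10 immediate-early genes, where edgeR called 0 in each. At a threshold of 0.1 edgeR called 2 immediate-early genes. Over leaving out 1 library the lists stayed at 0, except the regulators of p53, at 0 to 1 (1 without glycerol replicate 3). Same-numbered mice did not pair: their deviations from group means correlated at -0.01, -0.011 and -0.049, and 0 of 6 mice correlated best with their own number. The replicate block changed no call of the 10 genes. Spread between 3 mice per group limits most of these comparisons, and counting error adds to it for Bbc3, Bid and Bcl2, which have few counts. The spread was below the counting error for Bbc3 with melatonin (3.74% against 5.57% of the mean) and Bid with glycerol alone (8.3% against 9.3%). It was above the counting error in the other group of each gene, and in both groups for Bcl2.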
